A study of Mus musculus with 20 samples.

Results

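The cGAS-STING pathway was examined through 6 genes, chosen by name with earlier results of these data known. They included Mb21d1, which encodes the DNA sensor cGAS, and Tmem173, which encodes the adaptor STING. The others were the kinase genes Tbk1 and Ikbke, the transcription factor gene Irf3 and the DNA exonuclease gene Trex1. All 6 were among the 23402 rows of the deposited table and among the 12788 rows with a mean of at least 0.5 FPKM that were tested. RNA came from tumours grown under the skin of mice from the colon adenocarcinoma line MC38: 10 libraries of the vehicle control (Control) and 10 of tumours with ATBx given peri-tumorally (P.T.ATBx). ATBx is usually short for antibiotics, but agent, dose, schedule, mouse strain and age are not in the labels. Whether every tumour grew in a different mouse is not labelled either, and the p-values therefore reflect variation among these libraries, part of which may be technical.

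cGAS binds double-stranded DNA in the cytosol and makes the cyclic dinucleotide cGAMP. cGAMP binds STING on the endoplasmic reticulum, STING moves to the Golgi and recruits TBK1 or its relative IKKε, and the kinase phosphorylates IRF3, which enters the nucleus and turns on interferon beta and related genes. TREX1 degrades cytosolic DNA and so limits the signal. In tumours the pathway is known for sensing tumour-derived and bacterial DNA or bacterial cyclic dinucleotides, in dendritic cells and macrophages among other cells, and most of its activation occurs at the protein level and not in RNA amount.

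The tissue was mixed, as the label of tumour tissue implies, although the cell type is labelled as cancer cell. Macrophage markers summed to 1276 to 1817 FPKM in Control and 1130 to 1888 in P.T.ATBx over the 9 genes of that list, and leukocyte markers to 399 to 694 and 360 to 691. Epithelial markers were low and uneven, summing to 4.31 to 179 FPKM (Control) and 12.2 to 53.0 FPKM (P.T.ATBx) over 8 genes, with Cdx2 listed at 0 in every library. Adipocyte markers summed to 58.7 to 2786 FPKM in Control and 87.4 to 694 in P.T.ATBx. Of the markers of 13 cell types, 1 passed the test between groups, the fibroblast proteoglycan gene Dcn (log2 fold change −0.31, adjusted p = 0.00125, limma). Dcn was 1 of 5 fibroblast markers tested, and 0.845% of all tested genes passed. Control 1 and Control 3 stood apart from the other libraries in their overall correlation, and 7.75% to 20.5% of summed FPKM went to the noncoding RNAs Rpph1 and Rmrp.

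The table gives the genes as Entrez 214763 (Mb21d1), 72512 (Tmem173), 56480 (Tbk1), 56489 (Ikbke), 54131 (Irf3) and 22040 (Trex1). Mb21d1 and Trex1 are both on chromosome 9 (GRCm38.p6, RefSeq coordinates). Mb21d1 spans 78430518 to 78443237 on the minus strand and Trex1 109057932 to 109059723 on the minus strand. Tbk1 lies on chromosome 10 from 121546455 to 121586794 and Ikbke on chromosome 1 from 131254600 to 131279601, both on the minus strand. Irf3 lies on the plus strand of chromosome 7 from 44997648 to 45002848. In GENCODE M21 the whole of Trex1 lies inside Atrip on the same strand, so the split of reads between these 2 genes is uncertain. Irf3 shares 1065 bases, 20.5% of its span, with Bcl2l12 on the opposite strand, and Mb21d1 and Ikbke overlap antisense or pseudogene transcripts on the opposite strand. The library kit keeps strand, but whether the counting used it is not given in the sources used here.

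RefSeq promoter windows, 250 bases before to 50 after a start site, matched 5 of the 6 genes. Those of the sensor and of the related kinases Tbk1 and Ikbke are shown because the RNA of these 2 kinases spread differently between libraries (SD pooled over the groups), and because Mb21d1 had the largest difference between groups. Only bases before the outermost annotated start are printed, 5′ to 3′ on the gene's strand, with matches of the GC box GGGCGG on either strand in capitals. The stretches are chr9:78443238-78443487 for Mb21d1, chr10:121586795-121587044 for Tbk1 and chr1:131279602-131279813 for Ikbke, all on the minus strand (GRCm38.p6).
Mb21d1: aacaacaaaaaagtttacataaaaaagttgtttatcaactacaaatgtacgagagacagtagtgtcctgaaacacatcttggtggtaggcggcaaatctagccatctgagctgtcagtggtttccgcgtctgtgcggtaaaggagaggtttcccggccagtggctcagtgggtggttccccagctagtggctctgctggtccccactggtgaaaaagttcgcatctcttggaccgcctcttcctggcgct
Tbk1: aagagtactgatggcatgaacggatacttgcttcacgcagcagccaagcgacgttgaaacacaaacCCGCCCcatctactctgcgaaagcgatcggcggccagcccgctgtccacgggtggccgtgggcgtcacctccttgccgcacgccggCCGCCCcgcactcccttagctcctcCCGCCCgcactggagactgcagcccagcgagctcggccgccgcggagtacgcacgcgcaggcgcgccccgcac
Ikbke: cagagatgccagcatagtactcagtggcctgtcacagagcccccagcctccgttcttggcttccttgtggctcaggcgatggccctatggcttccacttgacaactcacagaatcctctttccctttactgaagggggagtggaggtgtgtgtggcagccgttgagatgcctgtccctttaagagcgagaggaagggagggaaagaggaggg

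The Tbk1 window was 69.0% G or C and held 3 GC boxes, which do not overlap each other, where the Ikbke window was 54.0% G or C and the Mb21d1 window 53.0%, with no GC box in either. A GC box was found in 35.7% of the 32851 RefSeq windows of the same length, and in 3 of the 5 members with a window (Tbk1, Irf3 and Trex1). None of the 6 windows of these 5 genes held GAAA, any 2 bases and GAAA, the core of the interferon-stimulated response element, which 3.44% of all windows held on either strand. The same was true of TTC, any 3 bases and GAA, the gamma-activated site, found in 8.30% of windows, and of GGGA, any 2 bases and TTCC, a form of the NF-kB site, found in 1.47%. A match is a match of letters in a short window and was not related to binding.

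By length-scaled level (FPKM), the order of the 6 genes was the same in both groups. Trex1 was highest, averaging 39.7 (Control) and 39.0 FPKM (P.T.ATBx), followed by Tmem173 (34.2 and 31.99), Tbk1 (26.8 and 26.9), Irf3 (17.1 and 16.4), Ikbke (9.34 and 8.91) and Mb21d1 (6.70 and 5.82). The ranges of Trex1 and Tmem173, of Tmem173 and Tbk1, and of Ikbke and Mb21d1 overlapped within both groups, although Trex1 was above Tmem173 in all 10 libraries of each group. Tbk1 and Irf3 did not overlap in either group, nor did Irf3 and Ikbke. By these values the sensor RNA was the scarcest of the 6 and the exonuclease RNA the most abundant. The ratio of Trex1 to Mb21d1 FPKM was 5.97 ± 0.932 (SD over 10 Control libraries) and 6.72 ± 0.703 (SD over 10 of P.T.ATBx). The rank of Trex1 and this ratio depend on the uncertain split of reads between Trex1 and Atrip.

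**Figure D1:**
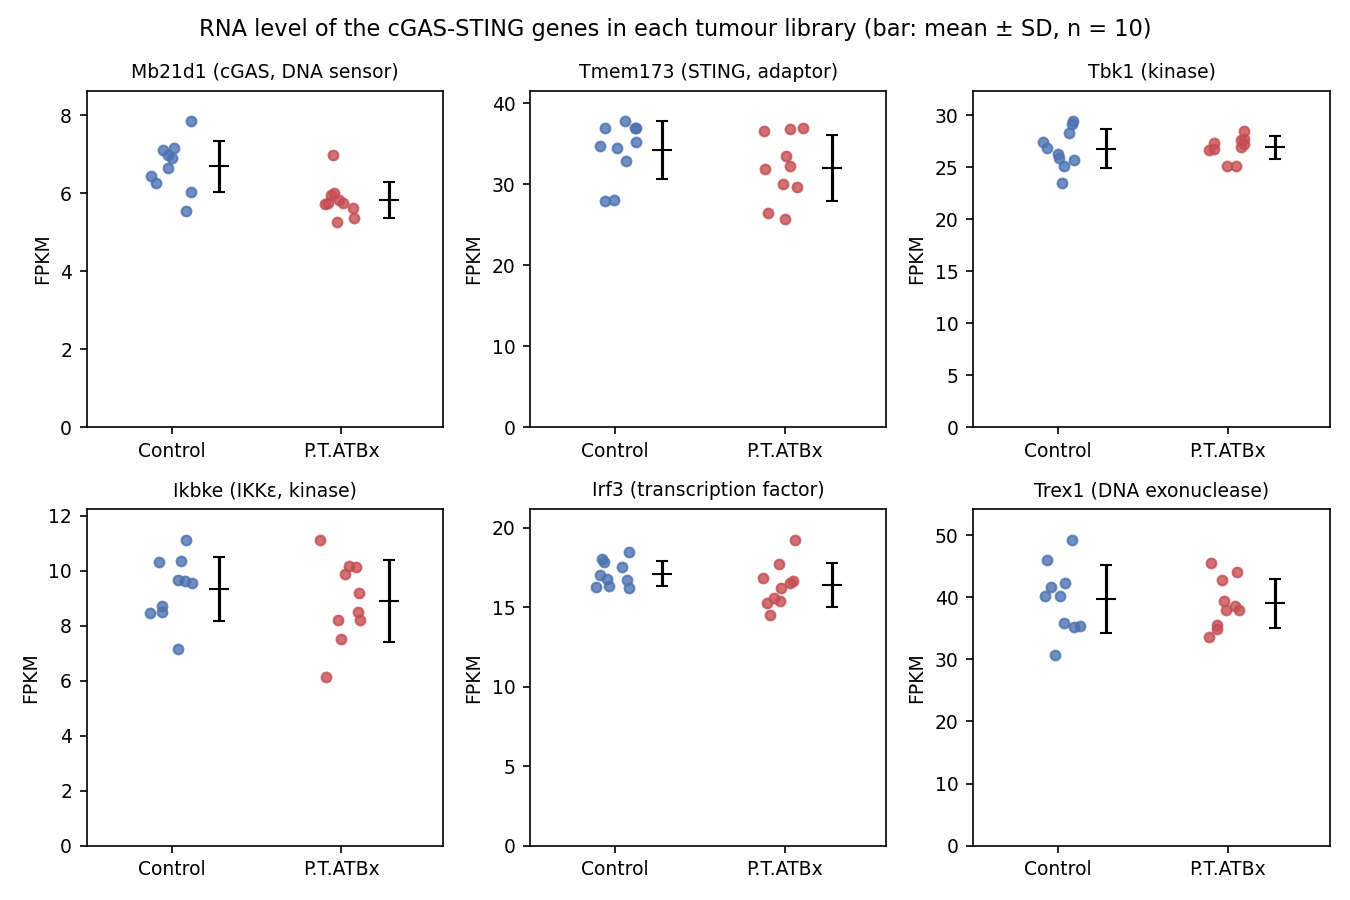
FPKM of the 6 cGAS-STING genes, 1 panel per gene, 1 point per tumour library, Control in blue and P.T.ATBx in red, with the mean and SD of 10 libraries beside each group. The groups overlap in every panel, and the widest separation is that of Mb21d1, where 9 P.T.ATBx libraries lie under 6.77 FPKM, the median of Control.

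None of the 6 genes passed the test between P.T.ATBx and Control: 0 of 6 had an adjusted p under 0.05 (limma on log2(FPKM + 1), Benjamini-Hochberg over all 12788 genes), where 0.845% of all tested genes did (0.461% upward in P.T.ATBx and 0.383% downward). At an unadjusted p under 0.05 there was 1 of 6, Mb21d1, against 13.6% of all tested genes. The sign was negative for 5 of the 6, and the median log2 fold change over all 6 was −0.06, beside 48.5% negative and a median of 0.00 over all tested genes. The number of genes called over the whole table was 108, and it was 193 without Control 1 and 69 without P.T.ATBx 4.

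The sensor gene Mb21d1 had the largest difference. Its lowest, median and highest values were 5.56, 6.77 and 7.85 FPKM in Control and 5.27, 5.75 and 6.99 in P.T.ATBx. The groups overlapped: 4 Control libraries lay above the highest P.T.ATBx library and 2 P.T.ATBx libraries lay below the lowest Control library. The low end of the Control range was set by Control 7 and the high end of the P.T.ATBx range by P.T.ATBx 5. Means were 6.70 ± 0.653 FPKM for Control and 5.82 ± 0.470 FPKM for P.T.ATBx (SD, n = 10 per group). On the log2 scale the difference was −0.17 (SE 0.05, 95% interval −0.28 to −0.07, p = 0.00276, adjusted p = 0.112, limma). By unadjusted p it ranked 315th of 12788 genes. The adjusted p (limma) ran from 0.0541 without Control 7 to 0.447 on the TPM scale, and the log2 fold change from −0.20 to −0.15, over the alternatives run. Relative to Tbk1 in the same library, which removes the scaling of the library, Mb21d1 stood at 0.251 ± 0.0252 in Control and 0.217 ± 0.0194 in P.T.ATBx, and 5 P.T.ATBx libraries lay below the lowest Control ratio. With Tmem173 as the denominator the ratios were 0.197 ± 0.0217 and 0.184 ± 0.0225, and 3 P.T.ATBx libraries lay below the lowest Control ratio. Median leukocyte marker sums were 584 (Control) and 535 FPKM (P.T.ATBx), and macrophage sums 1652 and 1549. These sums weigh the most abundant markers most. As mean log2(FPKM + 1), leukocyte markers stood at 6.29 ± 0.215 and 6.26 ± 0.227 (SD, n = 10 per group). Macrophage markers stood at 6.42 ± 0.128 and 6.37 ± 0.128. Log2 fold changes were negative for 3 of 5 leukocyte and 6 of 9 macrophage genes, and 0 passed (limma). The part of these cells in the Mb21d1 difference was not tested. In bulk tumour RNA, fewer cells that express a gene and less RNA per cell cannot be told apart.

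The adaptor gene Tmem173 spread more widely within the groups than it differed between them. Control libraries ran from 27.96 through a median of 34.99 to 37.81 FPKM, and P.T.ATBx libraries from 25.78 through 32.08 to 36.92. Control 2 and Control 3 were the low Control libraries, at 27.96 and 28.05 FPKM, and P.T.ATBx 1 and 2 the low ones of the other group, at 25.78 and 26.44. The log2 fold change was −0.10 (SE 0.07, 95% interval −0.25 to 0.05, p = 0.189, adjusted p = 0.609, limma), and 7 P.T.ATBx libraries lay under the median of Control. Leaving out P.T.ATBx 1 gave −0.06 and leaving out Control 1 and Control 3 gave −0.14, the extremes of the alternatives, with adjusted p (limma) of at least 0.319 under every alternative run.

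The kinase gene Tbk1 had nearly the same level in both groups. It had 23.4, 26.6 and 29.4 FPKM as its lowest, median and highest value in Control and 25.1, 27.1 and 28.5 in P.T.ATBx, so every treated library lay inside the Control range. The log2 fold change was 0.01 (SE 0.04, 95% interval −0.07 to 0.09, adjusted p = 0.949, limma), and its sign turned without Control 1, Control 3 or P.T.ATBx 7. The spread between libraries of a group, 0.08 as an SD on the log2 scale, was lower than that of all but 10.4% of tested genes. Within Control its coefficient of variation, 7.01%, was above the 4.66% of Irf3, and within P.T.ATBx, at 3.99%, it was below the 8.29% of Irf3.

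Ikbke, which encodes the related kinase IKKε, lay at 0.349 ± 0.0302 of the Tbk1 level in Control and 0.331 ± 0.0501 in P.T.ATBx. Its FPKM had a lowest, median and highest value of 7.15, 9.58 and 11.1 in Control and 6.12, 8.85 and 11.1 in P.T.ATBx. The groups overlapped almost throughout, and 1 P.T.ATBx library, P.T.ATBx 1, lay below the Control range. The log2 fold change was −0.07 (SE 0.08, 95% interval −0.24 to 0.10, adjusted p = 0.774, limma), and −0.02 without P.T.ATBx 1. Its SD of 0.20 on the log2 scale, pooled over the groups, exceeded that of 78.8% of tested genes. The coefficient of variation was 12.4% in Control, below the 13.9% of Trex1, and 16.7% in P.T.ATBx, above the 10.2% of Trex1.

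The transcription factor gene Irf3 was, like Tbk1, tightly held, with an SD of 0.09 on the log2 scale, above 17.1% of tested genes. Control libraries had 16.2, 16.9 and 18.5 FPKM as lowest, median and highest value, and P.T.ATBx libraries 14.5, 16.4 and 19.2. In 4 P.T.ATBx libraries the level was below every Control library, and in 1, P.T.ATBx 10, above every one. The log2 fold change was −0.06 (SE 0.04, 95% interval −0.15 to 0.03, p = 0.160, adjusted p = 0.572, limma), and −0.09 (p = 0.0316, adjusted p = 0.306, limma) without P.T.ATBx 10. Its antisense neighbour Bcl2l12 averaged 12.5 ± 1.55 FPKM (Control) and 13.1 ± 1.77 FPKM (P.T.ATBx).

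The exonuclease gene Trex1 did not differ by more than its spread. Values in Control were 30.8, 40.2 and 49.3 FPKM at the lowest, the median and the highest, and 33.6, 38.3 and 45.5 in P.T.ATBx, so the treated libraries lay inside the Control range. The log2 fold change was −0.02 (SE 0.07, 95% interval −0.17 to 0.13, adjusted p = 0.943, limma), and its sign turned without Control 5, Control 10 or P.T.ATBx 2. Atrip, the gene in which Trex1 lies and which encodes a partner of the ATR kinase, had 6.18 ± 0.697 FPKM in Control and 6.51 ± 0.599 FPKM after P.T.ATBx (0.07 on the log2 scale, adjusted p of 0.670 by limma).

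**Figure D2:**
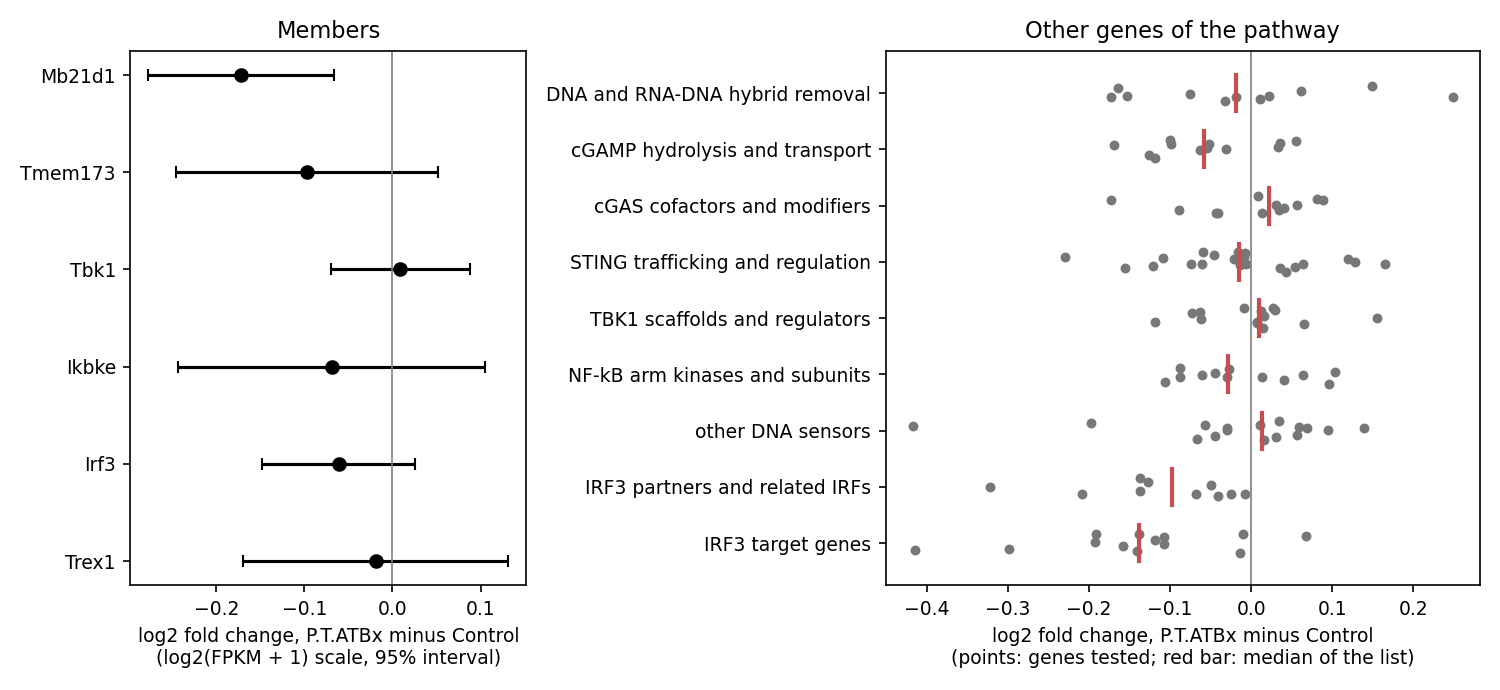
Log2 fold changes, on the log2(FPKM + 1) scale (positive values: higher in P.T.ATBx), for the 6 members with 95% intervals (left) and for the tested genes of 9 other groups of the pathway (right, 1 point per gene, red bar at the median). Among the members the interval of Mb21d1, −0.28 to −0.07, is the only one that leaves out 0, and no gene in either panel passed the adjusted threshold.

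Around the 6 genes, 131 further genes of the pathway were sorted into 9 groups by role, of which 122 were tested and 0 passed the adjusted threshold (limma). At an unadjusted p under 0.05 there were 8 higher and 9 lower, together 13.9% against 13.6% of all tested genes, with 7.51% of all genes higher and 6.08% lower. This share was close to the background. The sign was negative for 75 of the 122, where 48.5% of all tested genes were negative. Of these, 10 were all the tested partners and relatives of IRF3, and 12 were among the 13 tested genes induced through IRF3. The other lists had medians from −0.06 to 0.02. Values below are means ± SD over 10 libraries, Control first. Gja1, Xrcc5, Nfkbia, Relb, Ikbkb, Ikbkg and Enpp1 were named after their values were seen.

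Among enzymes that remove DNA or RNA-DNA hybrids, 5 of 11 tested genes had positive and 6 negative log2 fold changes (median −0.02). Pld3, which encodes a lysosomal exonuclease of single-stranded nucleic acids, had 27.9 ± 2.62 and 33.6 ± 5.11 FPKM (log2 fold change 0.25, p = 0.00398, adjusted p = 0.129, limma), with 9 of 10 P.T.ATBx libraries above the Control median. It passed without P.T.ATBx 2 (adjusted p = 0.0140, limma) and with limma's arrayWeights (adjusted p = 0.0313). The RNA-editing enzyme gene Adar had 18.1 ± 2.28 and 16.02 ± 2.41 FPKM (−0.17, adjusted p = 0.373, limma), and every P.T.ATBx library lay below the Control median.

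In the group of cGAMP hydrolases, channels and carriers, 9 of 12 were negative (median −0.06). Those with an unadjusted p under 0.05 were Lrrc8c and Lrrc8e, subunits of the volume-regulated anion channels that can pass cGAMP, and the gap junction gene Gja1. Lrrc8c had 12.1 ± 1.29 and 10.7 ± 1.31 FPKM (log2 fold change −0.17, adjusted p = 0.250, limma) and Lrrc8e 4.28 ± 0.506 and 3.85 ± 0.340 (−0.12, adjusted p = 0.349, limma). Gja1 had 83.2 ± 7.26 and 76.3 ± 8.50 FPKM. Enpp1, the main extracellular cGAMP hydrolase gene, was low at 1.66 ± 0.354 FPKM in Control and had a log2 fold change of −0.05 (adjusted p = 0.804, limma).

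Cofactors and modifiers of cGAS were 8 positive and 4 negative of 12 (median 0.02). Pqbp1, which encodes a cGAS-binding protein, had 33.6 ± 1.93 and 35.9 ± 2.57 FPKM (log2 fold change 0.09, adjusted p = 0.351, limma), and the acetyltransferase gene Kat5 had 36.7 ± 2.28 and 38.9 ± 2.36 (0.08, adjusted p = 0.376, limma). Of 22 genes of STING trafficking and regulation, 15 were negative (median −0.01). Rnf5, a ubiquitin ligase that targets STING, had 8.49 ± 0.790 and 7.72 ± 0.609 FPKM (−0.12, adjusted p = 0.284, limma). Npc1, the lysosomal cholesterol transporter gene, had 19.4 ± 2.02 and 21.2 ± 1.76 (0.13, adjusted p = 0.330, limma).

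TBK1 scaffolds and regulators were 9 positive and 5 negative of 14 (median 0.01). Tank, which encodes a TBK1-binding scaffold, had 43.3 ± 6.05 and 48.1 ± 4.49 FPKM (log2 fold change 0.16, adjusted p = 0.336, limma), and Traf2 had 21.4 ± 1.2502 and 20.4 ± 1.38 (−0.06, adjusted p = 0.563, limma). In the NF-kB arm, which STING can also engage, 4 of 12 genes had an unadjusted p under 0.05 (limma), 2 in each direction. Of all tested genes 13.6% did. The median log2 fold change of the 12 was −0.03. The kinase gene Chuk, which encodes IKKα, had 30.04 ± 1.53 and 32.3 ± 1.16 FPKM (0.10, p = 0.00377, adjusted p = 0.126, limma), and every P.T.ATBx library lay above the Control median. Map3k7, which encodes TAK1, had 19.9 ± 0.917 and 21.3 ± 0.829 (0.10, adjusted p = 0.155, limma). The other genes of the IKK complex, Ikbkb and Ikbkg, both had −0.03. The inhibitor gene Nfkbia (61.6 ± 2.99 and 57.9 ± 3.18 FPKM, −0.09) and the subunit gene Relb (21.0 ± 0.699 and 19.5 ± 1.84, −0.11) lay lower, with adjusted p of 0.275 and 0.294 (limma).

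Other DNA sensors were 9 positive and 7 negative of 16 (median 0.01). Zbp1, an interferon-inducible sensor of Z-form nucleic acids, had 141 ± 35.3 and 106 ± 29.2 FPKM (SE 0.17 around −0.42 in log2 units, adjusted p = 0.275, limma), the most negative value of all 122 genes. Aim2, the inflammasome DNA sensor gene, had 10.47 ± 1.15 and 11.6 ± 1.22 (0.14, adjusted p = 0.335, limma), and Xrcc5, a DNA-end binding subunit, 0.10 (adjusted p = 0.343, limma). Mb21d1 and Aim2 therefore had opposite signs, and neither passed.

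Partners and relatives of IRF3 were negative in 10 of 10 tested genes (median −0.10). Irf4 had 1.505 ± 0.520 and 0.986 ± 0.270 FPKM (log2 fold change −0.32, p = 0.00338, adjusted p = 0.121, limma), with 6 P.T.ATBx libraries below the lowest Control library. Irf9, a subunit of the interferon-activated complex ISGF3, had 27.1 ± 4.09 and 23.5 ± 4.33 (−0.21, adjusted p = 0.385, limma). Genes induced through IRF3 were negative in 12 of 13 (median −0.14), and 0 passed. Over all tested genes 48.5% were negative. At an unadjusted p under 0.05 there was 1 of the 10 and 1 of the 13, against 13.6% of all tested genes (limma). Whether the genes of a list vary independently was not tested, so these signs cannot be counted as separate observations. Zc3hav1, an antiviral RNA-binding protein gene, had 53.3 ± 5.85 and 48.2 ± 4.75 FPKM (−0.14, adjusted p = 0.353, limma) and Trim21 19.6 ± 2.51 and 17.5 ± 2.49 (−0.16, adjusted p = 0.400, limma). Cxcl10, a T cell chemokine gene, had 308 ± 93.5 and 230 ± 68.5 FPKM (−0.41, SE 0.21, adjusted p = 0.402, limma), and the ubiquitin-like Isg15 had 105 ± 27.0 and 93.6 ± 13.3 (−0.14, adjusted p = 0.673, limma). Ifnb1, the interferon gene at the end of the pathway, was below the filter. The table lists it at 0 in 3 libraries of Control and in 1 of P.T.ATBx, and it reached 0.298 FPKM (Control) and 0.593 FPKM (P.T.ATBx), with medians of 0.165 and 0.182.

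Within the groups, 4 of the members, Tmem173, Tbk1, Ikbke and Trex1, had positive correlations with each other in every pair, from 0.41 to 0.90, while those of Irf3 with the other members were mostly negative. Part of this rested on 2 libraries of each group. Without the 2 farthest from the median of the gene listed first, these pairs ran from 0.09 (Tmem173 and Ikbke in Control) to 0.83. In P.T.ATBx, Tmem173 and Tbk1 then had 0.14 and Tbk1 and Ikbke 0.18. Over 30 relations (15 pairs in each group of 10, log2(FPKM + 1), two-sided permutation test with 100000 resamples, Benjamini-Hochberg), 2 had an adjusted p under 0.05, both in P.T.ATBx. Tmem173 and Trex1 had r = 0.90 (permutation p = 0.00067, adjusted p = 0.0201) and rho = 0.88 (permutation p = 0.00136, adjusted p = 0.0408), and r = 0.83 without the 2 libraries farthest from the Tmem173 median. Tmem173 and Ikbke had r = 0.83 (permutation p = 0.00245, adjusted p = 0.0367) and rho = 0.77 (permutation p = 0.0124, adjusted p = 0.0948), and r = 0.59 without the 2 farthest libraries. Without the 4 libraries highest in Rpph1 and Rmrp (Control 1, Control 3, P.T.ATBx 1 and P.T.ATBx 4), r was 0.91 and 0.71 for these 2 pairs, with adjusted p of 0.0558 and 0.273 by the same permutation test.

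In Control, Tmem173 and Trex1 had r = 0.73 (permutation p = 0.0153, adjusted p = 0.0764), with 0.40 without the 2 farthest libraries and 0.80 without Control 1 and Control 3. Tmem173 and Tbk1 had r = 0.76 and Tbk1 and Ikbke r = 0.78 in Control (adjusted permutation p = 0.0513 for both), with 0.68 and 0.40 without the 2 farthest libraries. Ikbke and Trex1 had r = 0.78 in P.T.ATBx (adjusted permutation p = 0.0513), with 0.69 without the 2 farthest. Mb21d1 had r from −0.03 to 0.43 with these 4 genes over both groups. Irf3 had r from −0.46 to 0.12 with the other 5 genes, and 0 of its 10 relations had an adjusted p under 0.05. Whether any relation differed between the groups was not tested.

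**Figure D3:**
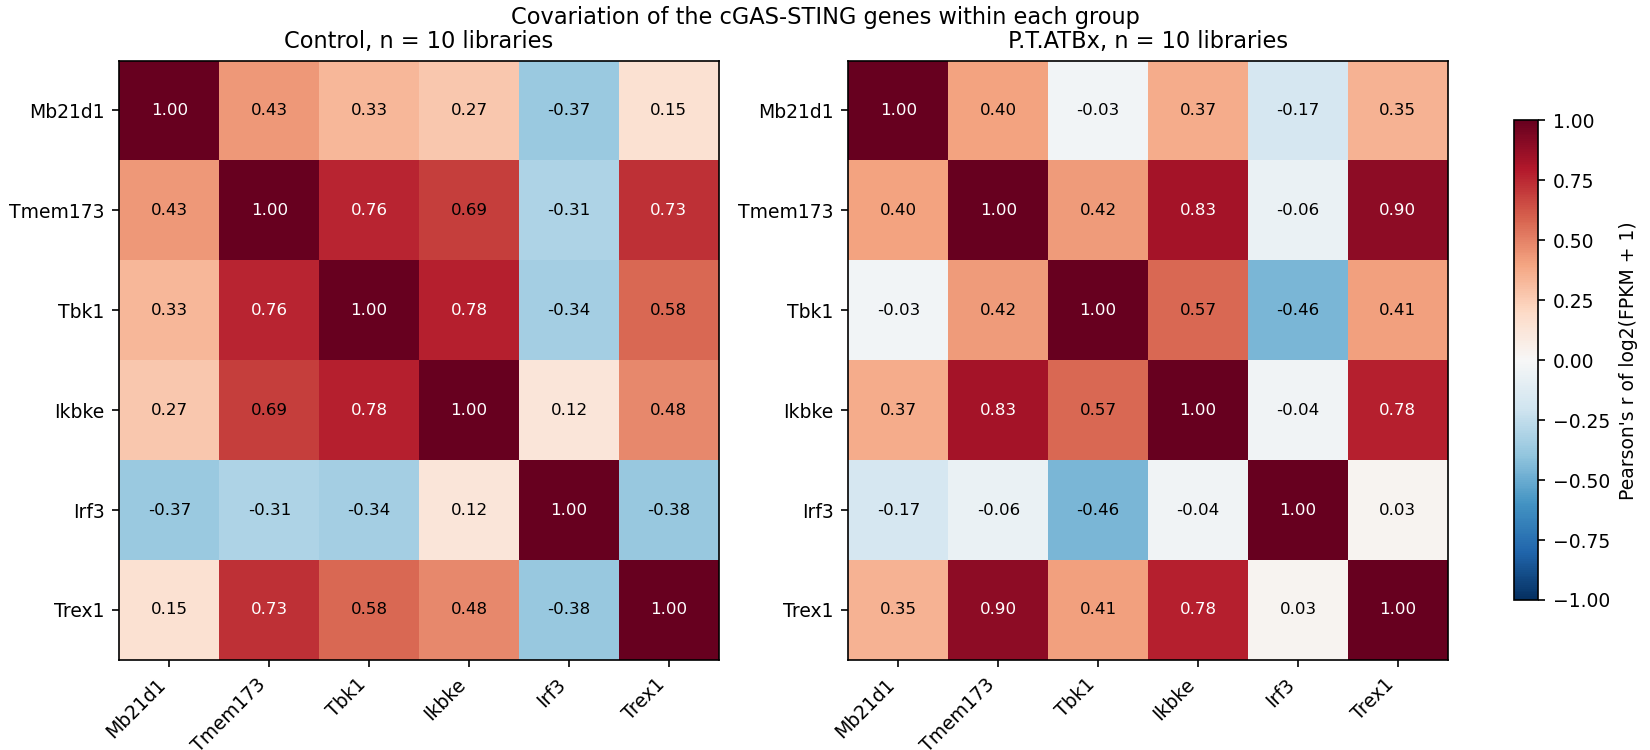
Pearson's r of log2(FPKM + 1) between the 6 genes over the 10 Control libraries (left) and the 10 P.T.ATBx libraries (right), coloured from −1 (blue) to 1 (red). Tmem173, Tbk1, Ikbke and Trex1 form a block of positive values in both groups, up to 0.90 for Tmem173 and Trex1 in P.T.ATBx, and the row of Irf3 stays between −0.46 and 0.12. Without 2 libraries per group, not shown, values of the block fell as low as 0.09.

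Members were then set against the mean log2(FPKM + 1) of 5 other lists, 60 relations in all, a set chosen after the pair values were seen. With the 13 tested IRF3 target genes, Tmem173 had r = 0.82 in Control (permutation p = 0.00322, adjusted p = 0.0215), with a rho of 0.70 that missed the threshold (adjusted permutation p = 0.140), and r = 0.95 in P.T.ATBx (permutation p = 7e-05, adjusted p = 0.0042), where rho was 0.90 (adjusted permutation p = 0.0210). Without the 2 libraries farthest from the median target level r was 0.68 and 0.91. Tbk1 (r = 0.85) in Control, Ikbke (r = 0.83 and 0.80) in both groups and Trex1 (r = 0.86) in P.T.ATBx also had adjusted permutation p under the threshold, at 0.0159, 0.0215, 0.0304 and 0.0131. Their rho values, 0.85, 0.72, 0.67 and 0.84, had adjusted permutation p from 0.0508 to 0.154. Mb21d1 and Irf3 had none under the threshold with any of the 5 lists. Without Control 1 and Control 3 the Control values with the target list were 0.68 for Tmem173, 0.70 for Tbk1 and 0.65 for Ikbke, none under the threshold (adjusted permutation p from 0.173 to 0.237). In P.T.ATBx, Ikbke had r = 0.73 without the 4 libraries (adjusted permutation p = 0.140).

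Tmem173 and Trex1 also ran with immune cell markers. In P.T.ATBx, Tmem173 had r = 0.88 with the macrophage markers (permutation p = 0.00026, adjusted p = 0.0045; rho = 0.95, adjusted p = 0.0042) and r = 0.84 with the leukocyte markers (adjusted permutation p = 0.0102). Trex1 had r = 0.88 with both lists (adjusted permutation p = 0.0045 for each), with rho of 0.82 and 0.81 (adjusted permutation p = 0.0613 for each). In Control, Tmem173 and Trex1 had r = 0.85 and 0.76 with the leukocyte markers (adjusted permutation p = 0.0436 and 0.0448), with 0.15 and 0.42 without the 2 farthest libraries. Their rho values, 0.60 and 0.72, missed the threshold (adjusted permutation p = 0.221 and 0.140), as did r with the macrophage markers in Control, at 0.78 and 0.72 (adjusted permutation p = 0.0553 and 0.0663). Without Control 1 and Control 3 the Control r with the leukocyte markers was 0.90 for Tmem173 and 0.74 for Trex1 (adjusted permutation p of at least 0.105). The part of immune cell content in the covariation of Tmem173 and Trex1 was not tested.

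**Figure D4:**
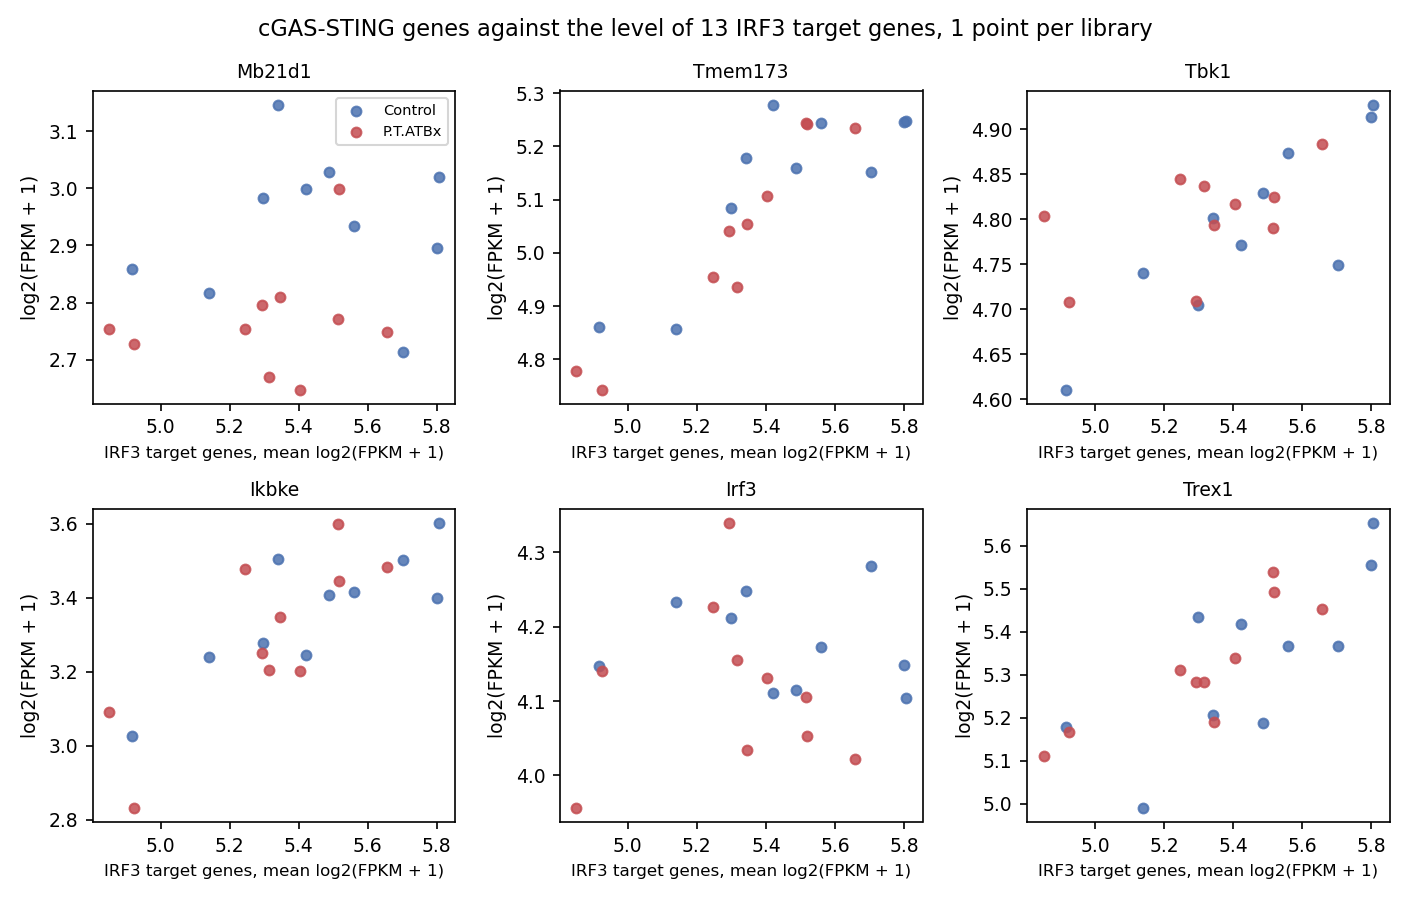
Log2(FPKM + 1) of each cGAS-STING gene (vertical) against the mean log2(FPKM + 1) of 13 IRF3 target genes (horizontal), 1 point per library, Control in blue and P.T.ATBx in red. Tmem173 is higher where the target level is higher in both groups (r = 0.82 and 0.95), while Mb21d1 and Irf3 scatter without such a trend.

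The genes whose levels ran most like each member were ranked by Pearson's r over the 20 libraries after the group means were subtracted, as a description. Tmem173 was most like Themis2, a signalling protein gene of B cells and macrophages (r = 0.95), Tapbp (r = 0.95) and Tap1 (r = 0.94), the last 2 of the MHC class I peptide-loading complex. Trex1 ran with Ifi204 (r = 0.89), Sp100 (r = 0.89) and Mnda (r = 0.88), which all belong to interferon-inducible families, and Tmem173 itself had r = 0.78 with Trex1, with 83 tested genes higher. Among the genes most like Ikbke were the phospholipase gene Plcb2 (r = 0.88) and the RNA sensor gene Tlr3 (r = 0.88). The nearest to Tbk1 were Cast, which encodes the calpain inhibitor calpastatin (r = 0.87), the annexin gene Anxa4 (r = 0.84) and the formin gene Fmnl2 (r = 0.84). Without Control 1 and Control 3 these 3 values were 0.75, 0.75 and 0.73. Irf3 was nearest to Fastk (r = 0.78), Dcakd (r = 0.75) and Aplp1 (r = 0.73). The highest values for Mb21d1 were 0.74 with Syt11, 0.73 with Rasgef1b and 0.73 with Wdr41, and without Control 1 and Control 3 they were 0.80, 0.74 and 0.74. All 20 libraries share a table and its scaling, whose part in these likenesses was not tested.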

How the data were processed

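RNA of 20 MC38 tumours was extracted with a column kit and built into stranded total RNA libraries, per the labels' protocols. The authors deposited FPKM (fragments scaled to gene length and library size), 1 column per library, and the build was mm10, per the submitters' processing notes. The sources used here name no aligner, counter or annotation. Summed FPKM ran from 556770 to 752782 while the upper quartile differed by 1.03-fold at most, so a further scaling may have been applied. Read totals are unknown. From the spacing of low values, libraries differed up to 1.59-fold in relative depth (0.808 to 1.29), and the number of libraries limits the precision.

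From the deposited FPKM, log2(FPKM + 1) was tested for the 12788 of 23402 rows with a mean of at least 0.5 FPKM, with limma 3.58.1 under R 4.3.3 (group as the only term, robust and trended, two-sided, Benjamini-Hochberg, threshold 0.05). Fold changes on this scale understate those of low genes. Simulated data with known changes served to check the script. Correlations used permutation tests with 100000 resamples. Symbols followed the table, with Adgre1 found as Emr1 through RefSeq synonyms, and 2 markers, Trac and Ly6g, matched no row.

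The members and lists were chosen with earlier results of these data known. Named genes were the 6 members, the 2 genes of each pathway list with the smallest p, the 3 genes most like each member (1 of them is not reported here), Ifnb1, Isg15 and Cxcl10. Alternatives covered the pseudocount, the filter, the scaling, library weights, moderation, the replicate number as a block, leaving out each library and leaving out libraries that stood apart. Leaving out the 4 libraries highest in Rpph1 and Rmrp was chosen after seeing the data, as were the correlations with lists.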

Additional observations from a re-analysis of the deposited data

Results flagged for a closer look

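Over 52 sets of 10 values (6 members and 20 named pathway genes in each group), 4 had 1 library separated from the rest by more of the whole range than the 95% critical value of Dixon's test for 10 values, where chance flags about 1 in 20. P.T.ATBx 5 had the highest Mb21d1 level of its group, 6.99 FPKM against 6.01 in the next library, so the library nearest the Control mean was a lone one, and without it the log2 fold change of Mb21d1 was −0.20. In Control 3 Irf4 stood at 2.87 FPKM against 1.56 in the next library. The Kat5 level of P.T.ATBx 8 was 44.1 FPKM against 40.4, and Npc1 in Control 1 was 15.2 FPKM against 18.4.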

How the results depend on the processing

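No member was called in any of the 31 alternative fits. Mb21d1, Tmem173, Ikbke and Irf3 kept a negative sign in all of them, while Tbk1 and Trex1, both near 0, did not. The log2 fold change of Tbk1 was −0.018 with arrayWeights, −0.025 without Control 1 and Control 3 and −0.017 without the 4 libraries highest in Rpph1 and Rmrp, and ran from −0.011 to 0.024 on leaving out 1 library. Trex1 ran from −0.057 to 0.016 on leaving out 1 library. The TPM scale called 49 of all genes (20 higher and 29 lower, against 59 and 49), arrayWeights 306, and there were 67 without the 4 libraries and 69 to 193 on leaving out 1. Of the pathway genes, 1 was called with arrayWeights (Pld3) and 1 with no filter (Gjb2, a low gap junction gene), and 0 to 1 on leaving out 1 library. Of the 30 pair correlations, 5 passed after quantile normalization, 19 on the TPM scale and 0 without the 4 libraries, where 2 passed otherwise. The cause of these changes was not tested. Replicate numbers did not pair the libraries: same-numbered libraries had correlations of their deviations from −0.315 to 0.393, with 5 of 10 over 0.1, and 3 of 10 Control libraries correlated best with their own number. With the replicate block 124 genes were called, Mb21d1 had −0.17 (adjusted p = 0.131, limma), Tmem173 −0.10 (adjusted p = 0.351, limma), and no member's call changed. Depth is unknown in absolute terms, so no counting error could be given for Ifnb1 or other low genes.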

Other observations

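The share of Rpph1 and Rmrp in summed FPKM was set against each member in each group, 12 relations in all, and 0 had an adjusted permutation p under 0.05. The strongest was with Irf3 in P.T.ATBx (r = 0.58, permutation p = 0.0796, adjusted p = 0.484; rho = 0.72, permutation p = 0.0233, adjusted p = 0.280), where r was 0.81 without the 2 libraries farthest from the median share.

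Relative to Tmem173, Mb21d1 stood at 0.197 ± 0.0217 (SD over 10 Control libraries) and 0.184 ± 0.0225 (SD over 10 of P.T.ATBx), and 3 P.T.ATBx libraries lay below the lowest Control ratio.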
